A study of Oryza sativa with 81 samples.

Results

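Young panicles of the rice hybrid WY308 were compared with young panicles of its parents, WFB and R308. The comparison rests on 9 of the study's 81 RNA-seq libraries. They are replicates 4, 5 and 6 of each line, taken by their labels for line and tissue. Gene models entered the tests if they passed a filter on low counts, which 24748 of the 38714 in the table did.

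The study covered 4 parental lines of Oryza sativa (WFB, RFB, R998 and R308) and 5 first-generation hybrids (WY308, WY998, RY308, RY998 and WR) in 3 tissues, labelled young seedlings, filling panicles and young panicles. WY308 is the cross of WFB with R308, and the panicle is the flowering branch that bears the grains. All lines were grown in a field, no treatment is named, and total RNA was depleted of ribosomal RNA and sequenced by a stranded method. The labels give no plant age or panicle length. They do not say whether the 3 libraries of a line came from separate plants, so p-values cover the spread between libraries only. For young panicles this spread was taken from the libraries of all lines, not of WFB, R308 and WY308 alone.

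In a first-generation hybrid, each nuclear gene has a copy from each parent. A gene whose copies are transcribed as in the parents lies at the mean of the parental levels, which is called additive. A gene at the level of 1 parent is called dominant for that parent, and a gene above or below both is called transgressive. The gene models carry identifiers without names, and no role is given for them here. Levels are CPM (counts scaled to a common library size), scaled between libraries by the trimmed mean of M-values, and are used to compare lines for 1 gene, not genes with each other. In a bulk sample, fewer cells of a type and less RNA per cell cannot be told apart.

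The 9 libraries held 32775512 to 40514598 counts, with at least 1 count in 26785 to 27809 gene models. Correlations of log2 CPM over the tested genes, with a pseudocount of 0.5 CPM, are given as descriptions across genes. Libraries of WFB had a mean correlation of 0.994 to 0.995 with others of their line, those of R308 0.992 to 0.993, and those of WY308 0.987 to 0.992. WY308 libraries had mean correlations of 0.978 to 0.982 with R308 and 0.962 to 0.967 with WFB. Replicate 6 of WY308 stood apart. A chi-square test of its counts gave 65.5 per degree of freedom against replicate 4 and 37.9 against replicate 5, where all other pairs of replicates gave 10.1 to 20.9. It also held counts at genes seen in R998, a line that is no parent of WY308. Of 53 genes with at least 5 CPM in R998 and under 0.1 CPM in both WFB and R308, 49 had a count in replicate 6. Their summed level was 1.68% of that in R998, against 0.0240% to 0.0913% in the other 8 libraries. Of all libraries of other lines, its highest correlation was with WY998 replicate 4 (0.987). This was not particular to replicate 6. WY308 replicates 4 and 5 were also highest with WY998, at 0.982 with its replicate 6 and 0.984 with its replicate 5. The source of the counts at R998 genes in WY308 replicate 6 was not identified and their part in the results was not tested. The main counts are given with and without this library.

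**Figure D1:**
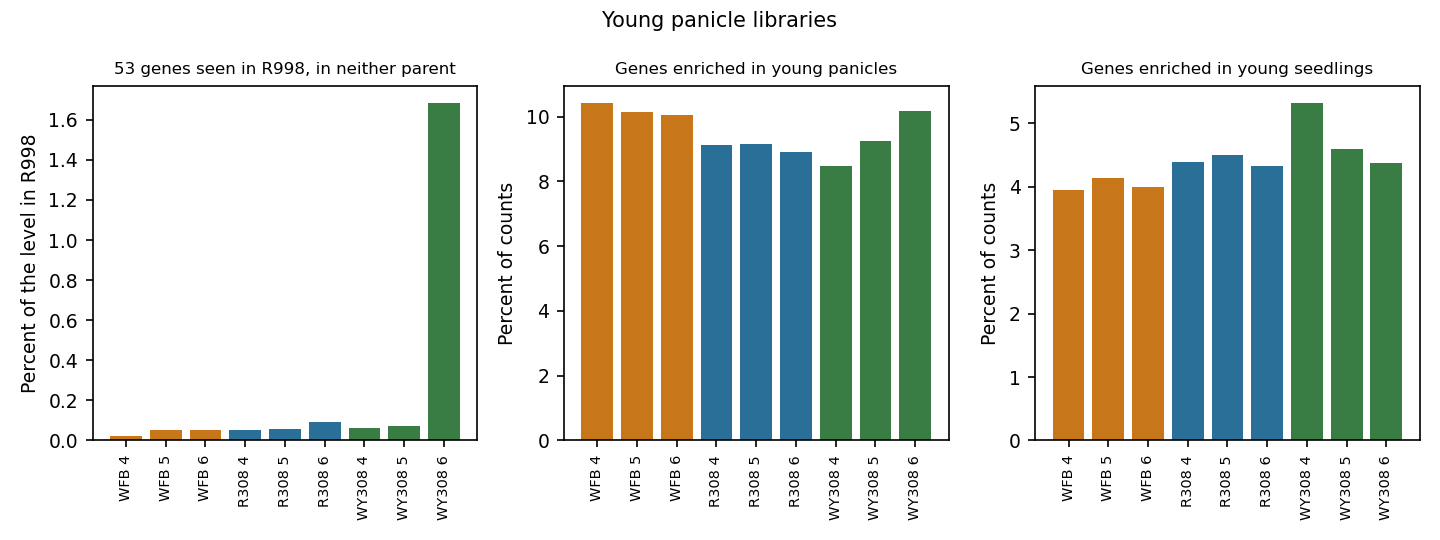
Each bar is 1 young panicle library of WFB, R308 or WY308. The left panel gives the summed CPM of 53 genes seen in R998 and in neither parent, as a percent of their level in R998, where WY308 replicate 6 stands at 1.68%. The middle and right panels give the percent of counts in genes enriched in young panicles and in young seedlings, where the 3 WY308 libraries spread more widely than those of either parent.

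The parents differed in the young panicle at 9077 genes, 36.7% of those tested (edgeR quasi-likelihood test with Benjamini-Hochberg adjustment, adjusted p under 0.05, two-sided, as for all calls that follow). Levels were higher in WFB at 4576 genes (18.5%) and higher in R308 at 4501 genes (18.2%). Differences of at least 2-fold made up 1472 of the first and 2189 of the second. The largest were genes with counts in 1 parent alone. OsR498G0203221200.01 had 111, 116 and 109 CPM in R308 and no count in WFB. OsR498G0101198100.01 had 38.6, 41.3 and 52.1 CPM in WFB and no count in R308. With 3 counts over the group taken as the floor of a parent at 0, R308 was at least 4294-fold higher for the first gene and WFB at least 1570-fold higher for the second.

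Genes seen in 1 parent alone were carried into WY308 at close to the mid-parent level. A mean of 5 CPM or more in a parent, with less than 0.1 CPM in its partner, was found at 89 genes for WFB and 93 for R308. Their median level in WY308 was 0.508 of that in WFB and 0.534 of that in R308, where 0.5 is the mid-parent. By library, the medians were 0.558, 0.497 and 0.456 for WFB genes and 0.571, 0.533 and 0.488 for R308 genes, in replicates 4, 5 and 6. Replicate 6 was the lowest for both sets. Against the mid-parent, 7 of the WFB genes were called below and none above, and 1 of the R308 genes was called above and 2 below. Over all tested genes, 2.84% were called above and 2.54% below.

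In WY308, OsR498G0203221200.01 had 52.9, 54.9 and 70.1 CPM and OsR498G0101198100.01 had 26.4, 24.8 and 15.8 CPM. In both cases all WY308 libraries lay between the parents without overlap. Against the mid-parent the fitted log2 change was 0.08 for the first (adjusted p = 0.771) and 0.02 for the second (adjusted p = 0.983). OsR498G0306383300.01 had 32.8, 33.8 and 33.9 CPM in WFB, no count in R308, and 18.9, 14.4 and 15.0 CPM in WY308. OsR498G0612514800.01 had no count in WFB, 67.5, 62.3 and 65.5 CPM in R308, and 44.2, 41.0 and 31.8 CPM in WY308. Both again lay between the parents in every library, with adjusted p-values against the mid-parent of 0.885 and 0.411. The most abundant genes of this kind behaved alike in CPM. OsR498G1119645400.01 had 122 ± 2.26 CPM in WFB and 65.8 ± 9.64 in WY308, and OsR498G1119646100.01 had 104 ± 6.39 and 44.9 ± 1.89, with at most 0.109 CPM in any R308 library (SD, n = 3). OsR498G0510534900.01 had 109 ± 4.78 CPM in R308, 54.1 ± 4.73 in WY308 and at most 0.0285 in any WFB library. None of these 3 differed from the mid-parent, with adjusted p-values of 0.800, 0.532 and 0.992, and these p-values do not show that the levels were equal to it.

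WY308 was far closer to R308 than to WFB in the number of genes that differed. Against WFB, 6654 genes were called (26.9%), with 3507 higher (14.2%) and 3147 lower (12.7%) in the hybrid. Against R308, 1279 genes were called (5.17%), with 869 higher (3.51%) and 410 lower (1.66%). Without replicate 6 the counts were 7001 against WFB and 1136 against R308. Of the genes higher than in R308, 581 of 869 changed by at least 2-fold, compared with 130 of the 410 lower genes. Over all tested genes the median log2 change was 0.00 against WFB and 0.01 against R308.

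Each of the 9077 parental differences was sorted by whether WY308 differed from 1 parent, both or neither. WY308 differed from WFB but not from R308 at 5079 genes (56.0%), and from R308 but not from WFB at 402 genes (4.43%). It lay between the parents and differed from both at 798 genes (8.79%), differed from neither at 2778 (30.6%), and lay beyond both at 20. Without replicate 6, 5226 genes were like R308, 458 like WFB and 606 between. The excess of genes like R308 held in both directions. It was 2288 against 314 where WFB was the higher parent and 2791 against 88 where R308 was higher. Being like a parent here means only that no difference was called, and differences, small or not, can be missed with 3 libraries. OsR498G1119903200.01 had no count in WFB, 66.3, 61.6 and 65.0 CPM in R308, and 45.8, 35.7 and 28.1 CPM in WY308. It was counted as like R308 (adjusted p = 0.771), although its WY308 and R308 libraries did not overlap. In WY998, a line outside this comparison but in the same fit, the gene ranged from 0 to 12.1 CPM. OsR498G0307357900.01, counted as like WFB, had 18.2, 19.9 and 20.03 CPM in WFB, no count in R308 and 12.6, 11.6 and 10.8 CPM in WY308. Its WY308 libraries lay below every WFB library, with an adjusted p of 0.310 against WFB. At this gene R998 ranged from 0 to 2.91 CPM. The part of these spreads in the calls was not tested.

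The classes differed with how the parents differed in the other tissues, a split made after seeing the data. At 1371 genes the parental difference was called in each of the 3 tissues with 1 sign. Of these, 533 (38.9%) were between the parents in WY308 young panicles, 480 (35.0%) were like R308 and 148 (10.8%) like WFB. At 3157 genes the parental difference was called in young panicles alone. Of these, 1848 (58.5%) were like R308, 46 (1.46%) like WFB, 28 (0.887%) between and 1229 (38.9%) differed from neither. Differences of at least 2-fold made up 956 of the 1371 and 636 of the 3157, so the sets differ in how easily a class can be called. Without replicate 6 the shares like R308 were 39.3% and 59.4%. Without replicate 5 the share like R308 was 34.3% in the first set and 41.9% in the second, where 55.9% then differed from neither parent. A test of the difference between the sets was not made.

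**Figure D2:**
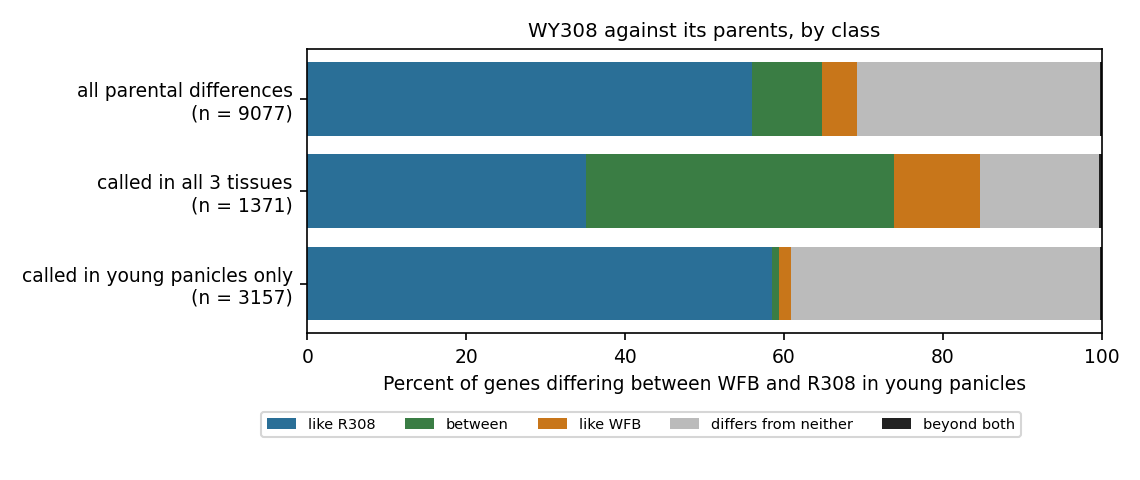
Bars give the percent of genes with a parental difference in young panicles that fall in each class of WY308, for all 9077 such genes, for the 1371 called with the same sign in all 3 tissues and for the 3157 called in young panicles alone. Genes between the parents make up 38.9% of the second bar and 0.887% of the last, and genes like R308 make up the longest segment of the first and last bars.

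The position of WY308 between its parents, which needs no call for the hybrid, gave the same order. On a scale from 0 at R308 to 1 at WFB, the 3661 genes with a parental difference of at least 2-fold had a median position of 0.384. The medians by library were 0.366, 0.324 and 0.421 for replicates 4, 5 and 6. For the 956 genes different in all 3 tissues the median was 0.463, with 0.458, 0.463 and 0.477 by library. For the 636 genes different in young panicles alone it was 0.272, with 0.252, 0.190 and 0.379 by library. Every library lay on the R308 side of 0.5 in all 3 sets. The spread between libraries was widest in the last set, where replicate 6 was nearest the mid-parent and replicate 5 nearest R308. In the other tissues, the same median over all differences of at least 2-fold was 0.506 in young seedlings (2114 genes) and 0.370 in filling panicles (3600 genes).

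**Figure D3:**
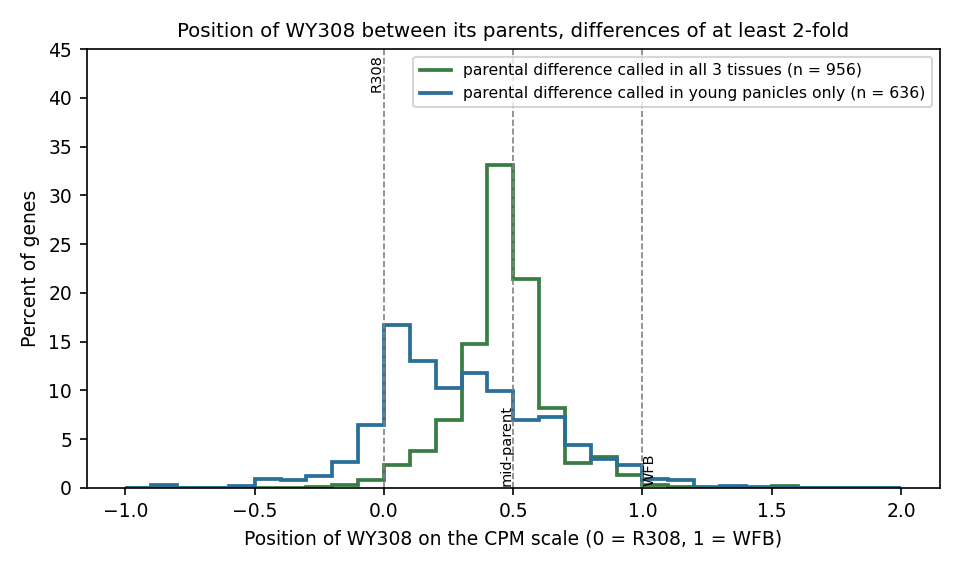
The outlines give the percent of genes at each position of the mean WY308 level on a linear CPM scale, with 0 at R308, 0.5 at the mid-parent and 1 at WFB, in steps of 0.1. The 956 genes that differ between the parents in all 3 tissues gather near the mid-parent (median 0.463), and the 636 that differ in young panicles alone spread toward R308 (median 0.272).

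Tested against the arithmetic mid-parent, WY308 deviated at 1331 genes (5.38%), with 703 above (2.84%) and 628 below (2.54%). Without replicate 6 there were 1222 calls, 635 above and 587 below, and without replicate 5 there were 736. The lists changed more than these counts show. Of the 1331 genes, 923 were called again with the same sign without replicate 6, and 704 without replicate 5. Most deviations pointed to R308. Of the 1331 genes, 1165 moved toward R308. Among these, 604 were above the mid-parent where R308 was the higher parent and 561 were below it where WFB was higher. Only 42 moved toward WFB, and 124 had no called parental difference. Without replicate 6 the counts were 1049 toward R308 and 39 toward WFB, and without replicate 5 they were 627 and 24. Without WFB replicate 5 or WY308 replicate 4, 26 and 27 genes moved toward WFB. The hybrid mean lay outside the range of the 2 parental means at 710 of the 1331 genes, but few of these differed from both parents by test.

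Deviations were mostly modest. They reached 2-fold at 73 of the 703 genes above and 159 of the 628 below. Calls grew more frequent with expression, from 2.60% among the 6187 genes of lowest mean CPM to 7.06% among the 6187 of highest.

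**Figure D4:**
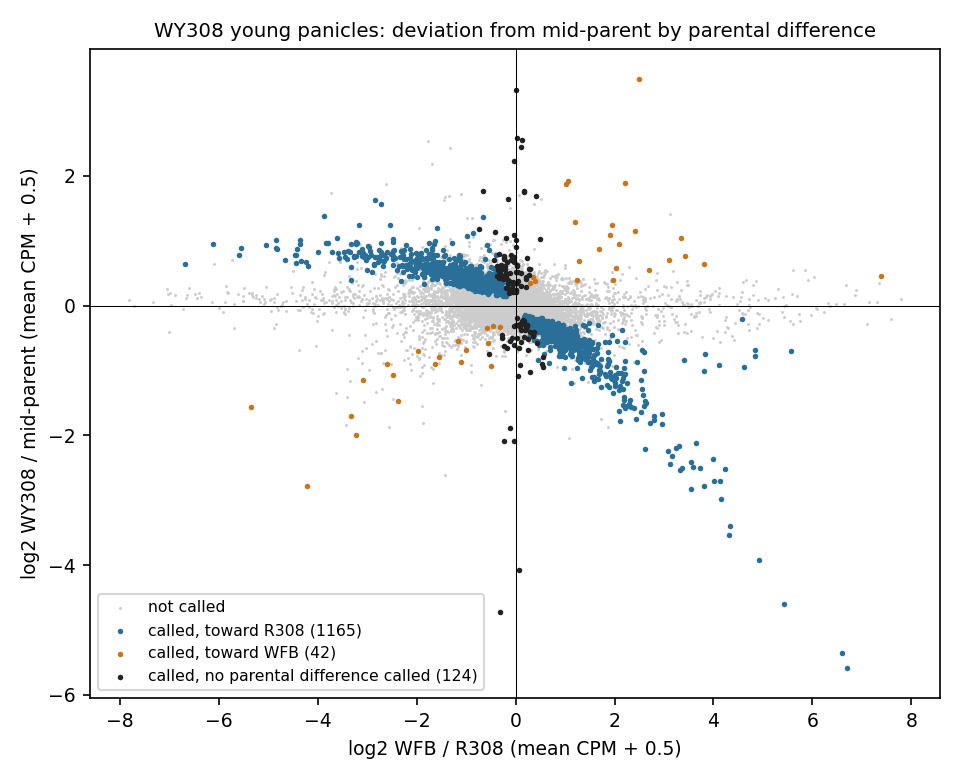
Each point is a tested gene, with the log2 ratio of WFB to R308 on the x axis and the log2 ratio of WY308 to the mid-parent on the y axis, both from mean CPM plus 0.5. The 1165 genes called toward R308 lie in the upper left and lower right, and the 42 called toward WFB in the opposite corners. The line through 0 on the y axis is the additive level.

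Among genes with at least 5 CPM in 1 of the 3 lines, the 2 with the largest fall against the mid-parent were abundant in WFB and nearly silent in both R308 and the hybrid. OsR498G0102775000.01 had 67.2, 62.6 and 60.5 CPM in WFB, 0.209, 0.0626 and 0.0814 in R308, and 0.201, 0.0925 and 0.215 in WY308. The WFB libraries stood apart, and those of WY308 and R308 overlapped. The mid-parent was 187-fold higher than WY308 (log2 change -7.53, adjusted p = 3.90e-14). OsR498G0409483700.01 followed the same course, with 102, 93.6 and 89.97 CPM in WFB, 0.471, 0.595 and 0.407 in R308, and 0.632, 0.802 and 0.615 in WY308. All WY308 libraries were slightly above those of R308 and far below those of WFB, and the mid-parent was 69.9-fold higher (log2 change -6.13, adjusted p = 4.35e-14). Neither gene deviated in young seedlings, where WY308 had 275 ± 20.8 CPM of the first against 231 ± 22.3 in WFB and 205 ± 41.2 in R308 (SD, n = 3, adjusted p = 0.246). In filling panicles the first was again low in WY308, at 2.78 ± 0.502 CPM against 60.2 ± 3.50 in WFB (adjusted p against the mid-parent = 2.93e-11).

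Among genes with at least 5 CPM in 1 of the 3 lines, the largest deviation above the mid-parent was at OsR498G0611662100.01. It had 2.39, 2.78 and 2.83 CPM in WFB, 0.105, 0.0313 and 0.0543 in R308, and 17.9, 24.6 and 19.1 in WY308. All 3 WY308 libraries exceeded every parental library, which was a condition for naming it among genes beyond both parents. WY308 was 7.70-fold above WFB and 15.0-fold above the mid-parent (log2 change 3.91, adjusted p = 1.22e-11). The gene also had 35.9 ± 2.98 CPM in R998 young panicles (SD, n = 3). OsR498G0407971100.01, also called above the mid-parent, had 0.776, 0.648 and 14.0 CPM in WY308, at most 0.597 in any parental library, and 813 ± 21.8 CPM in R998. Its call against the mid-parent (log2 change 3.52, adjusted p = 0.00107) rested on replicate 6, without which the log2 change was 0.68 and the adjusted p 0.220. Its calls against each parent were lost too, with adjusted p = 0.178 against WFB and 0.371 against R308.

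**Figure D5:**
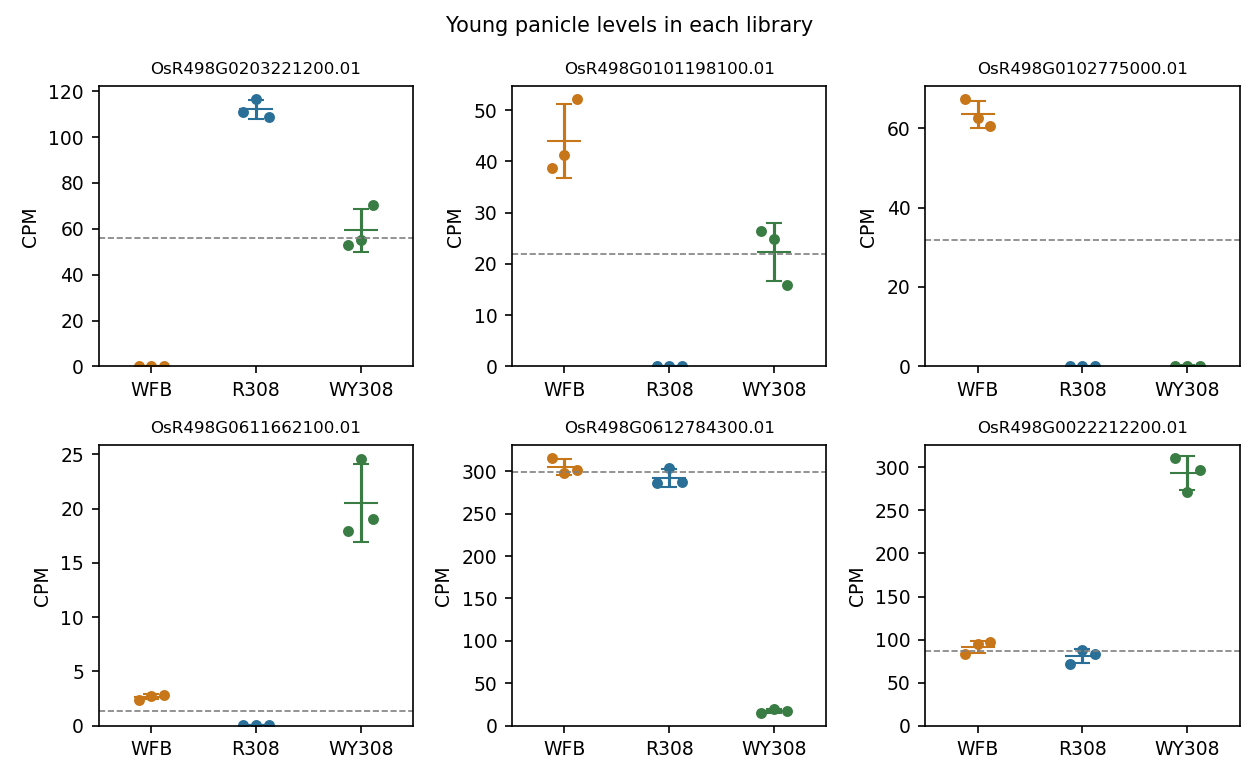
Points are the CPM of single young panicle libraries for 6 genes, with the mean and SD of each line (n = 3), and the dashed line is the mid-parent. The upper left and upper middle panels show genes seen in 1 parent and near the mid-parent in WY308. OsR498G0102775000.01 is near 0 in R308 and WY308 alike. The lower row shows 2 genes above and 1 gene below both parents in every WY308 library.

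Few genes lay beyond both parents by test. WY308 was above both at 31 genes (0.125%) and below both at 21 genes (0.0849%), and without replicate 6 the counts were 39 and 16. Without replicate 5 there were 45 above, and without R308 replicate 6 there were 13 below. Leaving out R308 replicate 4 gave 21 above. Of the 52 genes beyond both parents, 40 were called again without WY308 replicate 6, 39 without its replicate 5 and 36 without its replicate 4. The hybrid's libraries did not overlap those of either parent at 28 of the 31 genes and 19 of the 21. The calls came from these same libraries, so this separation is largely built in and adds no support to them. The smaller of the 2 changes reached 2-fold at 18 of the 31 and 8 of the 21.

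With the same minimum of 5 CPM, the genes farthest below both parents were OsR498G0611894900.01 and OsR498G0612784300.01. The first had 32.6, 35.5 and 38.7 CPM in WFB, 37.9, 48.9 and 46.1 in R308, and 1.38, 0.802 and 0.923 in WY308. The parental libraries overlapped in part, and every WY308 library was far below them. Its log2 change was -5.09 against WFB and -5.41 against R308 (adjusted p = 3.73e-16 and 2.54e-16). OsR498G0612784300.01 had 316, 298 and 302 CPM in WFB, 286, 304 and 287 in R308, and 14.7, 19.9 and 17.0 in WY308. Again the parents overlapped and the hybrid stood apart, 17.7-fold below WFB and 17.0-fold below R308 (adjusted p = 5.83e-14 and 1.43e-13). On the length-scaled FPKM values this gene averaged 586 in WFB, 543 in R308 and 31.7 in WY308, where the median of the tested genes in WFB was 7.96. OsR498G1019007500.01, also named for its fall against R308, had 5.99, 5.10 and 16.1 CPM in R308, at most 0.0509 in WFB, and 0.0862, 0.432 and 0.185 in WY308. Its R308 libraries varied among themselves but did not overlap those of WY308 (log2 change -5.27, adjusted p = 0.00216).

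Of the 21 genes below both parents, 10 had identifiers of the block whose numbers begin with 06, which held 2022 of the tested genes. A run of 29 neighbouring tested identifiers in that block, picked out after its values were seen, held 7 of them, among these OsR498G0611894900.01. All 7 were below both parents without replicate 6 as well, and 6 without replicate 5. In young panicles the 7 genes together had 512 ± 10.2 CPM in WFB, 541 ± 34.8 in R308 and 307 ± 25.2 in WY308 (SD, n = 3). The other hybrids with an R998 or R308 parent were similarly low, at 288 ± 9.28 in WY998, 262 ± 32.2 in RY998 and 283 ± 24.1 in RY308. WR, the cross of WFB with RFB, stood at 518 ± 4.29, within the range of the 4 parental lines, 440 ± 20.5 to 541 ± 34.8. In young seedlings the sum was 68.9 ± 3.30 CPM in WY308, 157 ± 21.6 in WFB and 143 ± 18.9 in R308. In filling panicles it was 201 ± 13.4 in WY308, 400 ± 24.8 in WFB and 307 ± 41.5 in R308. WR there had 295 ± 25.6, below the 395 ± 20.4 of RFB and the level of WFB. No test was made on this sum, since the genes were chosen by their level in WY308.

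Deviations from the mid-parent were compared with those of the same cross in the other tissues, over 20594 genes tested in all 3. WY308 deviated at 1648 genes in filling panicles (6.5% of those tested there) and at 187 in young seedlings (0.857%). Of the 1259 young panicle calls among the shared genes, 359 (28.5%) were called with the same sign in filling panicles and 1 with the opposite sign. They made up 23.7% of the 1517 filling panicle calls. In young seedlings 19 (1.51% of the young panicle calls and 10.9% of the 175 seedling calls) had the same sign and 39 the opposite. Without replicate 6 the same-sign counts were 300 of 1149 in filling panicles and 22 in young seedlings, with 35 of opposite sign. The parents also differed at fewer genes in young seedlings, 4385 (20.1%), than in filling panicles, 8651 (34.1%). WY308 was like R308 at 1407 and like WFB at 625 of the seedling differences, and at 5134 and 299 of those in filling panicles. These differences between tissues were not tested.

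Only 13 genes deviated with the same sign in all 3 tissues, 3 above the mid-parent and 10 below. OsR498G0022212200.01 was above. In young panicles it had 83.7, 94.6 and 96.9 CPM in WFB, 71.7, 87.3 and 83.8 in R308, and 311, 272 and 297 in WY308. Every WY308 library exceeded every parental library, and the hybrid was 3.40-fold above the mid-parent (log2 change 1.77, adjusted p = 8.70e-09). In young seedlings WY308 had 63.8 ± 10.2 CPM against 24.2 ± 2.80 in WFB and 25.3 ± 1.53 in R308 (SD, n = 3, adjusted p = 0.00542). In filling panicles it had 178 ± 24.9 against 72.9 ± 12.6 and 50.2 ± 10.4 (adjusted p = 4.96e-07). OsR498G0612784300.01 and OsR498G0611894900.01 were below in all 3. In young seedlings OsR498G0612784300.01 had 1209 ± 89.0 CPM in WFB, 897 ± 255 in R308 and 49.3 ± 9.63 in WY308 (adjusted p = 4.58e-08). OsR498G0611894900.01 had 8.39 ± 0.710 CPM in WFB and 9.95 ± 1.44 in R308, against 0.143 ± 0.118 in WY308 (adjusted p = 2.30e-08). Other hybrids were low at both genes in young panicles. OsR498G0611894900.01 had 0.891 ± 0.0406 CPM in WY998, 0.776 ± 0.263 in RY998 and 0.505 ± 0.0959 in RY308, but 42.6 ± 3.63 in WR. OsR498G0612784300.01 had 19.1 ± 1.88, 16.7 ± 1.62 and 17.8 ± 6.02 in the same order, but 272 ± 49.2 in WR.

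Genes enriched in a tissue were taken from the 6 lines other than WFB, R308 and WY308, as those with at least 5 CPM there and at least 8-fold more than in either other tissue. The 797 tested genes enriched in young panicles rarely deviated. WY308 was above the mid-parent at 12 and below at 5 (2.13%, against 5.38% of all tested genes), with a median log2 change of 0.03 against -0.01 over all genes. The parents too differed at fewer of them, 27.9% against 36.7% of all. Without replicate 6 there were 19 calls, and without replicate 5 there were 7. The 523 tested genes enriched in young seedlings deviated more often, with 18 above and 62 below (15.3%) and a median of -0.02. Of these 80 genes, 71 moved toward R308 and 1 toward WFB, a share close to the 1165 of 1331 over all genes. Without replicate 6 there were 71 calls, and 55 without replicate 5. The parents themselves differed at 53.7% of the seedling-enriched genes. Of the named genes, OsR498G0102775000.01, OsR498G0409483700.01, OsR498G0102419100.01 and OsR498G0612784300.01 belonged to this set. The last of these had no called parental difference and lay below both parents. Of the 407 genes enriched in filling panicles, 8 were above and 10 below (4.42%), or 10 in all without replicate 5.

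The share of counts in these sets differed among the WY308 libraries. Genes enriched in young panicles took 10.2 ± 0.202% of counts in WFB, 9.07 ± 0.134% in R308 and 8.48%, 9.24% and 10.2% in replicates 4, 5 and 6 of WY308 (SD, n = 3). Genes enriched in young seedlings took 4.03 ± 0.103% in WFB, 4.40 ± 0.0886% in R308 and 5.32%, 4.59% and 4.37% in the 3 WY308 libraries. This order depended on the fold. For genes enriched at least 16-fold in young seedlings the shares were 0.196 ± 0.00993% in WFB, 0.142 ± 0.00550% in R308 and 0.152 ± 0.00459% in WY308, with WFB the highest. Genes enriched in filling panicles took 0.247 ± 0.00416%, 0.286 ± 0.0140% and 0.269 ± 0.00816% in WFB, R308 and WY308. WY308 thus ranged from below R308 to the WFB level in its young panicle genes, and replicate 4 had the largest share of genes enriched 8-fold in seedlings. The part of these shares in the deviations was not tested.

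The log2 deviation of WY308 from the mean of the parents' log2 levels was tested against the mean deviation of WY998, RY308 and RY998 in 1 model. WY998 shares the parent WFB with WY308, and RY308 shares R308. A mean of log2 levels lies below the arithmetic mid-parent where the parents differ. An additive gene can thus be called where the crosses differ in their parental spread, and the size of a difference is affected alike. OsR498G0306383300.01, not called against the mid-parent (adjusted p = 0.885), had a difference of 3.75 (adjusted p = 9.96e-11). The difference between WY308 and the other hybrids was called at 1410 genes (5.7%). At 610 of them (2.46% of those tested) it had the sign of a called deviation from the mid-parent, 393 higher and 217 lower. Of the 610, 576 pointed to R308, 13 to WFB, and 21 had no called parental difference. Requiring a mid-parent call largely sets this direction, since 1165 of the 1207 such calls with a parental difference pointed to R308. Without replicate 6 there were 688 in place of 610, and without replicate 5 there were 356. The 2 genes highest against the other hybrids were OsR498G0611662100.01 (difference of log2 deviations 3.50, adjusted p = 0.00591) and OsR498G0306997600.01. The level of the first was not particular to WY308, at 20.5 ± 3.59 CPM there, 31.8 ± 7.42 in WY998 and 20.5 ± 4.10 in RY998. RY308 was low, at 0.0349 ± 0.0392, and WR, which is not in this comparison, had 1.53 ± 0.217 (SD, n = 3). The second had 20.7, 1.39 and 1.20 CPM in WY308 and 0.814 to 1.37 in the parental libraries. Its difference of 3.40 (adjusted p = 9.08e-04) rested on replicate 4, without which it was 0.81 and the adjusted p 0.272.

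The 2 lowest were OsR498G0102775000.01 (-3.10, adjusted p = 6.09e-05) and OsR498G0102419100.01 (-2.57, adjusted p = 6.63e-05). OsR498G0102419100.01 had 6.36, 5.58 and 4.78 CPM in WFB, 0.157, 0.219 and 0.217 in R308, and 0.0862, 0.185 and 0.0923 in WY308. WY308 was on the R308 side in every library, and its log2 change against the mid-parent was -4.56 (adjusted p = 8.58e-10). At neither gene was WY308 alone in its level. OsR498G0102775000.01 had 0.170 ± 0.0672 CPM in WY308, 0.337 ± 0.177 in WY998 and 0.266 ± 0.0641 in RY998, but 47.6 ± 9.06 in RY308 (SD, n = 3), which has R308 as a parent too. OsR498G0102419100.01 had 0.121 ± 0.0554 CPM in WY308, 0.161 ± 0.0616 in WY998 and 0.188 ± 0.00980 in RY998, and 5.90 ± 1.22 in RY308.

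RY998, the cross of RFB with R998, shares no library with WY308 and its parents. It deviated from its own mid-parent at 6028 genes (24.4%), of which 2952 moved toward R998 and 380 toward RFB. Of the 1331 deviations of WY308, 898 (67.5%) were called with the same sign in RY998, where they made up 14.9% of the calls, and 4 with the opposite sign. Without replicate 6, 747 of 1222 (61.1%) had the same sign. Of the 52 genes beyond both parents in WY308, 29 were beyond both parents of RY998 with the same sign, 16 above and 13 below, and none with the opposite sign. RY998 had 1299 such genes (5.25%). The shared genes were 27 of 55 without WY308 replicate 6 (49.1%) and 25 of 63 without its replicate 5 (39.7%), against 55.8% with all libraries. OsR498G0612784300.01 was among those shared, with 16.7 ± 1.62 CPM in RY998 against 247 ± 25.8 in RFB and 269 ± 38.3 in R998 (SD, n = 3).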

How the data were processed

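The authors deposited whole-number read counts per gene model, which were tested as deposited, and FPKM values (scaled by gene length and library total), used here only to set 1 gene against the median. Per the submitters' processing notes, HISAT2 aligned the reads. Which version, counter, strand setting, annotation and build were used is not given in the sources used here, so overlapping genes and near-identical copies are uncertain. Of 39387 named genes in a reference table of another assembly, 0 matched an identifier.

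In R 4.3.3 with edgeR 4.0.16, genes were kept by filterByExpr over the 27 young panicle libraries, scaled by TMM and fitted with 1 mean per line (quasi-likelihood). All tests were two-sided with Benjamini-Hochberg adjustment over all tested genes and a threshold of 0.05. The mid-parent entered as an offset per gene, with parental weights in steps of 0.1. Floors of 3 counts and the chi-square comparisons (genes with at least 10 counts in a pair) cover counting error only. All replicate pairs differed by more than sampling noise, so each library counted once. The fits were checked on simulated counts.

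Named genes had an adjusted p under 0.05, at least 5 CPM in the highest line and libraries that do not overlap, and were the 2 with the largest change in each direction of a comparison. Where the rule on overlap applied, separation of the libraries compared was a condition of being named and adds no support. For inheritance classes the gene with the largest parental change in each direction was taken, for 1-parent genes the 2 most abundant, for all 3 tissues the 2 with the largest smallest change, and for the difference from the other hybrids the 2 largest, without the rule on overlap. Groups and lists were chosen with earlier results of these data known. The split by tissue of the parental difference, the R998 genes, the RY998 comparison and the run of identifiers were chosen after seeing the data. Alternatives used DESeq2 1.42.0, other scaling, filters, samples and thresholds. Figures were drawn with matplotlib 3.10.9 in Python 3.11.15.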

Additional observations from a re-analysis of the deposited data

Results flagged for a closer look

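Values in this section are given without an explanation. The log2 deviation of WY308 from its parents differed by test from the mean deviation of WY998, RY308 and RY998 at 1410 genes. Additive genes can be among them. At 610 of the 1410 the difference had the sign of a called deviation from the mid-parent. The largest such differences were 3.50 at OsR498G0611662100.01, 3.40 at OsR498G0306997600.01, which rested on WY308 replicate 4, -3.10 at OsR498G0102775000.01 and -2.57 at OsR498G0102419100.01. At 39 genes WY308 was called on opposite sides of the mid-parent in young panicles and young seedlings, 32 of them above in young panicles. All 3 libraries of each tissue lay on opposite sides at each of the 39. The calls came from these same libraries, so this separation is largely built in. The difference between the tissues was not tested. R998, which is no parent of WY308, gave a signal in WY308 replicate 6, where genes seen in R998 and in neither parent had a summed level of 1.68% of that in R998, or 1.75% over the 20 such genes with at least 20 CPM in R998.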

How the results depend on the processing

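No named gene changed direction under an alternative. The near-even parental split of 4576 genes higher in WFB and 4501 in R308 turned to 4392 and 4945 with DESeq2, 4237 and 4751 with its size factors, 4189 and 4564 without the filter and 4084 and 4399 with the 9 libraries, and to 3759 and 3869, 3926 and 4118, and 3972 and 4031 without R308 replicates 4, 5 and 6. The 703 above and 628 below the mid-parent turned to 502 and 514 without R308 replicate 6. A geometric mid-parent raised the mid-parent calls from 1331 to 2274 (1751 above and 523 below, 77.0% above in place of 52.8%) and those toward WFB from 42 to 367. DESeq2 in place of edgeR gave 1653 mid-parent calls (1322 shared), its size factors 1300, no filter 1096, the 9 libraries alone 963 (863 shared) and leaving out block 00 1298. Leaving out 1 library at a time gave these ranges: 7509 to 9372 parental differences, 4974 to 7001 genes against WFB, 1013 to 1271 against R308, 736 to 1222 against the mid-parent, 627 to 1049 toward R308, 24 to 41 toward WFB, 21 to 45 above both, 13 to 20 below both, 3862 to 5226 like R308, 310 to 458 like WFB, 606 to 725 between, and 356 to 688 apart from the other hybrids. Genes enriched 4-fold in young panicles were called at 3.74%, against 2.13% at 8-fold, and 6.15% of young panicle calls of at least 2-fold recurred in young seedlings, against 1.51% of all. The causes of these shifts were not tested. With the replicate number as a block, 1224 genes were called against the mid-parent, 1202 of them shared. The 9 same-number pairs had correlations of -0.320 to 0.151, with 1 over 0.1, so the numbers were not taken to pair samples. Depth sets a floor of 0.0261 to 0.0301 CPM a line (3 counts), under which a level cannot be told from 0. Among tests of named genes, 329 with a library left out and 218 others kept their side of the threshold. The exceptions were OsR498G0407971100.01 without WY308 replicate 6 and, with the 9 libraries alone, against the mid-parent (adjusted p = 0.0566) and R308 (0.143), and OsR498G0306997600.01 without WY308 replicate 4.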
